A study of Oryza sativa with 4 samples.

Results

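Gibberellins are plant hormones that promote stem elongation, germination and flower development. In the last steps of their synthesis, gibberellin 20-oxidases (GA20ox) make the precursors that gibberellin 3-oxidases (GA3ox) turn into active hormone, while gibberellin 2-oxidases (GA2ox) and the cytochrome P450 enzyme EUI1 inactivate the hormone or its precursors. Active gibberellin binds the receptor GID1, which then holds the DELLA protein SLR1, a repressor of gibberellin responses, and the F-box protein GID2 marks SLR1 for degradation. In rice shoot tips, gibberellin synthesis is kept low in the meristem, and the balance of synthesis and inactivation sets internode and panicle stalk length.

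The genes described here are 10 rice gibberellin genes, chosen by name and locus and not by a limit on any value, though with earlier results of these data known, of 55986 loci in the deposited expression table. All 10 loci were found in it. They are the synthesis genes GA20ox1 (LOC_Os03g63970), GA20ox2, also called SD1 (LOC_Os01g66100), GA20ox3 (LOC_Os07g07420) and GA3ox2 (LOC_Os01g08220). The inactivation genes are GA2ox1 (LOC_Os05g06670), GA2ox3 (LOC_Os01g55240) and EUI1 (LOC_Os05g40384), and the signalling genes are SLR1 (LOC_Os03g49990), GID1 (LOC_Os05g33730) and GID2 (LOC_Os02g36974). The expression table gives loci without names, so each name rests on the list of genes and its locus. A reference table of rice gene names held the symbols of 6 of the 10 genes, on the same chromosomes as these loci.

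The study asked which genes the rice growth-regulating factor OsGRF6 controls, and had 4 libraries, 1 in each of 4 groups. RNA came from panicles, the inflorescences of rice, sampled while secondary branches formed, in 1 library of the wild type (the line Yutai B) and 1 library of p35S:MIM396, a transgene driven by the strong, constitutive 35S promoter whose transcript binds and sequesters the microRNA miR396. An OsGRF6 ChIP library, made with an anti-GFP antibody, and its input came from callus, a cultured and undifferentiated tissue, of p35S:GRF6-GFP lines, in which the fusion is again driven by the 35S promoter and so may occupy sites it would not reach at its own level. The labels do not say how many plants a library pooled. As each group is 1 library, the values carry no replicate error, the genotypes were not tested against each other, and each interval covers counting error only.

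The wild-type library held 16337526 reads at loci and the MIM396 library 13125593. The libraries stood far apart, and the wild-type library went against its tissue label. Of 19 loci listed as panicle and meristem genes from general knowledge, 10 had 0 reads in the wild-type library and none had 0 reads in the MIM396 library. Their summed level was 125.0 FPKM (fragments scaled for locus length and library size) in wild type, with 110.8 FPKM from 1 locus, and 1043 FPKM in MIM396. By the size rule given below, 12 of the 19 were higher in MIM396 and 1 was lower, against 23.1% and 27.3% of loci above the floor. As examples of the loci at 0 in wild type, LOC_Os03g51690 had 3988 reads in MIM396 and LOC_Os04g51000 had 1448. In contrast, of 18 loci listed as green-leaf genes of light harvesting and Rubisco, 17 were found in the table, and they took 10.7% of all reads in the wild-type library and 0.0114% in the MIM396 library. Their levels ran from 78.1 to 17544 FPKM in wild type and from 0.109 to 18.9 FPKM in MIM396. Of 12 loci listed as growth-regulating factors, the family that miR396 targets, 11 were higher in the MIM396 library by the size rule given below, which 23.1% of loci above the floor met, and none was lower. These factors are genes of young growing tissue, so this count does not check the genotype label: genotype and tissue cannot be told apart in it. The names of these loci are not in the files, and the lists were chosen with earlier results of these data known. Every difference given here moves with this gap in tissue markers as well as with the genotype label, and the part of the markers in it was not tested. In whole tissue, fewer cells of a type and less RNA per cell cannot be told apart.

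Differences are given in the measures below. The log2 ratio compares FPKM + 1 in MIM396 with FPKM + 1 in wild type, which understates the change of low genes. A locus counted as higher or lower when this ratio was at least 1 in size and the mean of both libraries reached 1 FPKM. The fold is a ratio of scaled reads, the reads as the authors scaled them, with a 95% exact conditional binomial interval. Among the 19456 loci above this floor, 23.1% were higher in MIM396 by this rule and 27.3% were lower.

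The 10 genes did not move as 1 group. GA20ox1, GA2ox3 and GID1 were higher in the MIM396 library, SD1 was lower, and GA3ox2, SLR1 and GID2 lay within the size limit. GA2ox1 and EUI1 had a mean under 1 FPKM, and GA20ox3 had 0 reads in both libraries. So 3 of the 7 genes above the floor were higher and 1 was lower, against the shares of 23.1% and 27.3% over all loci. With 7 genes, these counts are a description and say nothing particular about gibberellin genes. The median log2 ratio of the 7 genes was -0.29, the value of SLR1, and over all loci the quartiles were -1.16 and 0.91. In the authors' deposited table, an FDR under 0.05 was given to 4.95% of all 55986 loci, with or without reads, and to 0 of the 10 genes. The lowest FDR there was 0.0594, for SD1, followed by 0.138 for EUI1 and 0.161 for GID1. The sources used here do not name the authors' test, and no count test with replicates can be run on 1 library per group, so this count of 0 has no second tool beside it.

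**Figure D1:**
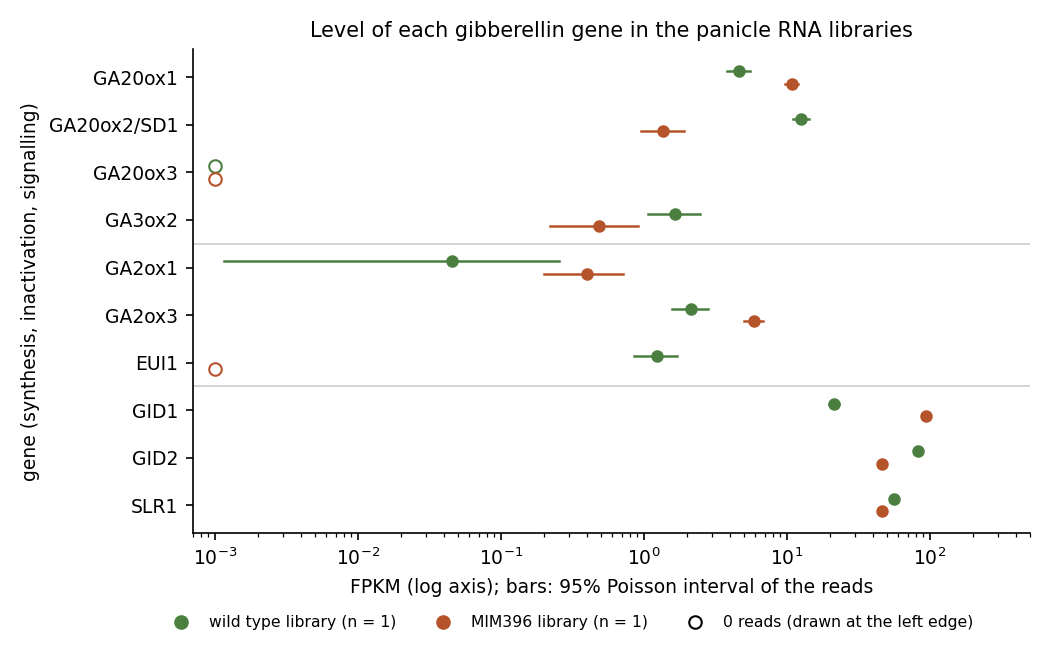
Level of each of the 10 genes, in FPKM on a log axis, in the wild-type library (green) and the MIM396 library (orange), with bars for the 95% Poisson interval of the reads and open points for 0 reads. The signalling genes lie between 21.4 and 94.1 FPKM in both libraries, and the synthesis and inactivation genes lie at 12.6 FPKM or lower.

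Of the synthesis genes, GA20ox1 and SD1 exchanged places. SD1, the 20-oxidase whose loss gives the semi-dwarf stature of modern rice, lies on chromosome 1 (38382381 to 38385504). In the wild-type library it had 258 reads, or 12.6 FPKM, and in the MIM396 library 35 reads, or 1.37 FPKM. It was thus high in wild type and low in MIM396, 9.23-fold lower in scaled reads (6.47 to 13.5), with a log2 ratio of -2.52. Of all loci above the floor, 11.8% had a lower log2 ratio. GA20ox1 (chromosome 3, 36150663 to 36152517), which catalyses the same step, had 116 reads, or 4.63 FPKM, in wild type against 338 reads, or 10.8 FPKM, in MIM396. It was the higher one in MIM396, 2.33-fold (1.88 to 2.90), with a log2 ratio of 1.07, just past the size limit.

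A ratio of these 2 genes within each library does not depend on how the libraries were scaled to each other. GA20ox1 made up 26.9% of the FPKM of the pair in wild type and 88.8% in MIM396. The ratio of GA20ox1 to SD1 was 0.368 in wild type and 7.90 in MIM396, and in reads it differed 21.4-fold between the libraries (14.02 to 33.3, exact conditional interval). Which 20-oxidase predominated therefore differed between the libraries by far more than counting error, whatever the scaling. This ratio was added after the values were seen, and its interval takes no account of that choice.

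GA20ox3 (chromosome 7, 3702286 to 3705030), another 20-oxidase gene, was at 0 reads in both libraries. A count of 0 allows a level of up to 3 reads, of 16337526 in the wild-type library and of 13125593 in the MIM396 library, so no fold is given. GA3ox2 (chromosome 1, 4003658 to 4004946), which makes active gibberellin and is known as the D18 dwarf gene, had 25 reads (1.66 FPKM) in wild type against 9 reads (0.482 FPKM) in MIM396. Its scaled reads were 3.48-fold lower in MIM396 (1.57 to 8.47), while its log2 ratio of -0.84 stayed within the size limit, because the added 1 FPKM weighs heavily at this level. The log2 ratio was negative under each of the 6 scalings compared. The mean of GA3ox2, 1.07 FPKM, lay just above the floor. It fell under the floor with equal read totals, with equal FPKM sums and when the 50 most abundant loci were dropped.

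**Figure D2:**
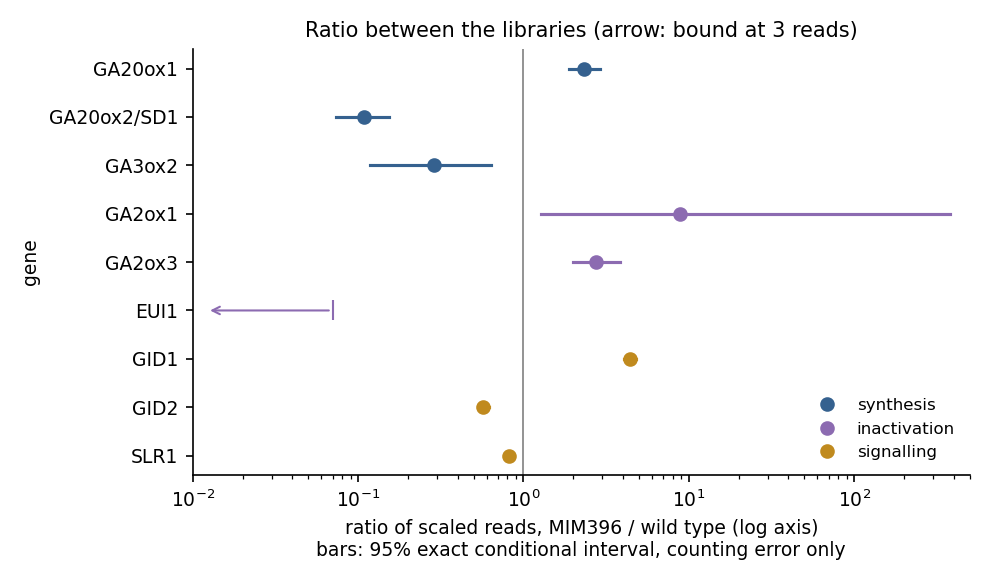
Ratio of scaled reads between the MIM396 and the wild-type library for 9 genes, on a log axis, with 95% exact conditional intervals that cover counting error only; the arrow for EUI1 starts at the bound given by 3 reads. GID1, GA2ox3, GA2ox1 and GA20ox1 lie above a ratio of 1, and SD1, GA3ox2, EUI1, GID2 and SLR1 lie below it.

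Among the inactivation genes, GA2ox3 and EUI1 differed in opposite directions. GA2ox3 (chromosome 1, 31795104 to 31797643), an enzyme that inactivates active gibberellin and its immediate precursor, had 50 reads (2.12 FPKM) in wild type against 172 reads (5.87 FPKM) in MIM396. It was higher in MIM396, 2.75-fold (1.99 to 3.84), with a log2 ratio of 1.14. GA2ox3 and GA20ox1 were both higher, and their ratio within a library was 0.459 in wild type and 0.542 in MIM396. In reads these ratios were 1.18-fold apart, with an interval of 0.797 to 1.76. That interval includes no difference but does not show that both genes were higher by the same factor. The ratio of GA2ox3 to SD1, in contrast, was 0.169 in wild type and 4.29 in MIM396.

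EUI1 (chromosome 5, 23728501 to 23738405) encodes the P450 enzyme whose loss gives an overlong uppermost internode. It was read 34 times in wild type, at 1.23 FPKM, and 0 times in MIM396. Against a floor of 3 reads in the MIM396 library, EUI1 was at least 14.2-fold lower there in scaled reads, a bound that leaves out the counting error of the wild-type reads. With that error included, the 95% exact conditional interval of the ratio of MIM396 to wild type reached up to 0.0915. Its mean of 0.614 FPKM lay under the floor of the size rule, so it is not counted as lower. A count of 0 allows a level of up to 3 reads of 13125593 in MIM396.

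GA2ox1 (chromosome 5, 3459615 to 3468755) was barely read in either library. It had 1 read (0.0454 FPKM) in wild type against 11 reads (0.401 FPKM) in MIM396, a ratio of 8.78 with an interval of 1.28 to 378. The expression table gives the same interval to LOC_Os05g06680, which was read 144 times in wild type against 265 in MIM396, so how reads were divided between the 2 loci is uncertain and the value of GA2ox1 with it.

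Summed by role, the 4 synthesis genes reached 18.8 FPKM in wild type against 12.7 in MIM396, and the 3 inactivation genes 3.40 FPKM in wild type against 6.27 in MIM396. The ratio of these inactivation and synthesis sums, which does not depend on the scaling between libraries, was 0.180 in wild type and 0.495 in MIM396. In wild type SD1 held most of the synthesis sum and in MIM396 GA20ox1 did. The inactivation sum was mainly GA2ox3 in each library, with EUI1 as the other main part in wild type. These sums are of transcripts and not of enzyme activity. They leave out the other gibberellin loci given below, so they are not the balance of the whole pathway. Of those, LOC_Os05g48700 alone reached 59.5 FPKM in MIM396, and LOC_Os06g37300 reached 19.3 FPKM in wild type. Each exceeded both sums of its library.

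**Figure D3:**
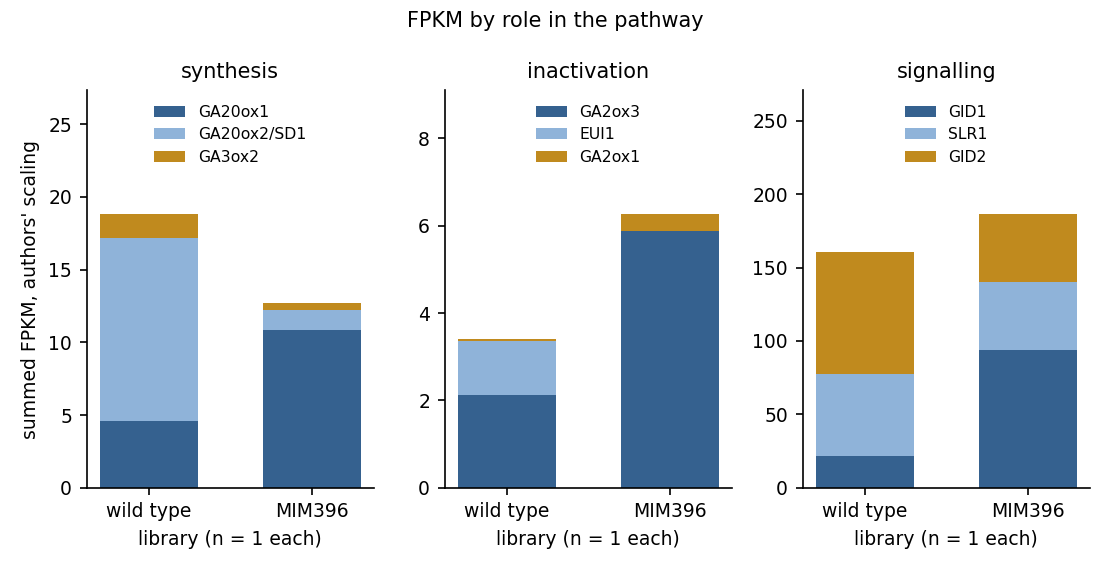
Stacked FPKM of the synthesis, inactivation and signalling genes (3 panels with separate vertical axes from 0) in the wild-type and the MIM396 library, 1 library each; GA20ox3 had 0 reads and is not drawn. SD1 fills most of the wild-type synthesis bar, GA20ox1 most of the MIM396 one, and GID1 goes from 21.4 to 94.1 FPKM in the signalling bars.

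The signalling genes were the most abundant of the 10 in each library. GID1 (chromosome 5, 19868418 to 19871283), the soluble gibberellin receptor, had 653 reads (21.4 FPKM) in wild type against 3585 reads (94.1 FPKM) in MIM396. It was 4.38-fold higher in MIM396 (4.03 to 4.77), with a log2 ratio of 2.09 that exceeded those of 90.4% of the loci above the floor. Of the signalling genes it had the lowest level in wild type and the highest in MIM396, where it stood above 98.5% of all loci.

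SLR1 (chromosome 3, 28512624 to 28515179), the DELLA repressor, had 1999 reads (56.3 FPKM) in wild type against 2035 reads (45.9 FPKM) in MIM396. Its scaled reads were 1.23-fold lower in MIM396 (1.16 to 1.31), an interval that covers counting error only, and its log2 ratio was -0.29. That direction depended on the scaling: the log2 ratio of SLR1 was 0.34 with equal read totals, 0.44 with equal FPKM sums and 0.11 when the 50 most abundant loci were dropped. No direction is therefore given for SLR1.

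GID2, the F-box protein of the complex that targets SLR1, was read at LOC_Os02g36974 (chromosome 2, 22333280 to 22337713). This locus had 1654 reads (82.7 FPKM) in wild type against 1183 reads (46.5 FPKM) in MIM396. It was 1.75-fold lower in scaled reads (1.62 to 1.89), with a log2 ratio of -0.82 that moved to -0.08 with equal FPKM sums. The value may not be that of GID2 alone. In the reference table of gene names, 3 genes overlap at this place, and 2 of them carry the symbol GID2 and 2 carry GF14E, the symbol of a 14-3-3 protein, while the expression table has 1 locus there. How much of these reads came from GID2 was not analysed here.

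Within a library, GID1 stood at 0.380 times the FPKM of SLR1 in wild type and at 2.05 times in MIM396, which is 5.39-fold apart in reads (4.86 to 5.99). The ratio of GID1 to the GID2 locus was 0.259 and 2.02. SLR1 and the GID2 locus stayed closer to each other, with ratios of 0.681 in wild type and 0.988 in MIM396, 1.42-fold apart (1.29 to 1.57). These ratios hold under any scaling of the libraries, so receptor transcript relative to DELLA transcript was higher in the MIM396 library. They too were added after the values were seen, which their intervals do not account for.

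In order of level, the wild-type library ran GID2, SLR1, GID1, SD1, GA20ox1, GA2ox3, GA3ox2, EUI1 and GA2ox1, with GA20ox3 at 0. The neighbours GA2ox3, GA3ox2 and EUI1 had Poisson intervals that overlapped, from 1.58 to 2.80, from 1.07 to 2.45 and from 0.850 to 1.72 FPKM. Such overlap does not show that levels were equal, and the differences between neighbours were not tested. The MIM396 library ran GID1, GID2, SLR1, GA20ox1, GA2ox3, SD1, GA3ox2 and GA2ox1, with EUI1 and GA20ox3 at 0. There the intervals of GID2 and SLR1 overlapped (43.9 to 49.2 and 44.0 to 48.0 FPKM), as did those of GA3ox2 and GA2ox1 (0.220 to 0.915 and 0.200 to 0.718 FPKM). GID1 moved from the third to the first place and SD1 from the fourth to the sixth.

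Another 19 loci were listed as gibberellin genes of rice from general knowledge, again with earlier results of these data known: further oxidases, enzymes of the early steps of synthesis, and signalling proteins. The files do not annotate them, so they are given by locus only. Of the 19, 14 lay above the floor of 1 FPKM, and of these 4 were higher in MIM396, 2 were lower and 8 lay within the size limit, beside 23.1% and 27.3% of all loci. This split depended on the scaling, with 9 higher and 1 lower at equal read totals. The shares of all loci above the floor moved with it, to 37.5% higher and 20.0% lower at equal read totals. In the authors' deposited table, 4 of the 19 had an FDR under 0.05, against 4.95% of all loci. That share covers all 55986 loci, of which only 19456 lay above the floor, so the comparison is not matched for level. The median log2 ratio of the 14 was 0.82.

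The highest ratio of these loci was that of LOC_Os05g48700, with 4 reads (0.175 FPKM) in wild type against 1695 reads (59.5 FPKM) in MIM396, 338.4-fold higher (131.9 to 1243). LOC_Os01g11150 had 2 reads (0.115 FPKM) in wild type against 240 reads (11.1 FPKM) in MIM396, a ratio of 95.8 (26.2 to 795.8). LOC_Os02g41954 had 2.08 and 41.1 FPKM, 19.7-fold higher (14.5 to 27.3). All 3 were near absent or low in wild type, and the gap was wider than that of any of the 10 named genes that were higher. LOC_Os01g45860 had 0.668 and 6.15 FPKM, 9.16-fold higher (5.40 to 16.7). In the other direction, LOC_Os06g37300 had 482 reads (19.3 FPKM) in wild type against 3 reads (0.0966 FPKM) in MIM396, 201.2-fold lower (68.4 to 979.1). LOC_Os05g34854 had 3.43 and 0.774 FPKM, 4.41-fold lower (2.69 to 7.55). The 4 loci with an FDR under 0.05 in the authors' deposited table were LOC_Os05g48700, LOC_Os01g11150, LOC_Os02g41954 and LOC_Os06g37300.

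The other 8 loci above the floor lay nearer to the diagonal. LOC_Os05g43880, with 2.85 FPKM in wild type against 6.30 in MIM396, LOC_Os04g44150, with 1.98 and 4.30, and LOC_Os08g44510, with 21.0 and 41.7, had log2 ratios from 0.83 to 0.96, close under the limit. LOC_Os06g37364 had 21.1 and 37.7 FPKM, and LOC_Os04g52230 had 25.8 and 39.6 FPKM. LOC_Os02g17780 (5.52 and 4.97 FPKM), LOC_Os06g02019 (4.48 and 3.69 FPKM) and LOC_Os01g59660 (3.22 and 3.79 FPKM) had intervals of the read ratio that included 1. Chosen after its values were seen, a pair under the floor resembled EUI1: LOC_Os01g22910 had 19 reads in wild type and LOC_Os07g01340 had 24, and each had 0 in MIM396, at least 7.93-fold and at least 10.02-fold lower against the floor of 3 reads. With the counting error of the wild-type reads included, the intervals of their ratios reached up to 0.171 and 0.133.

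**Figure D4:**
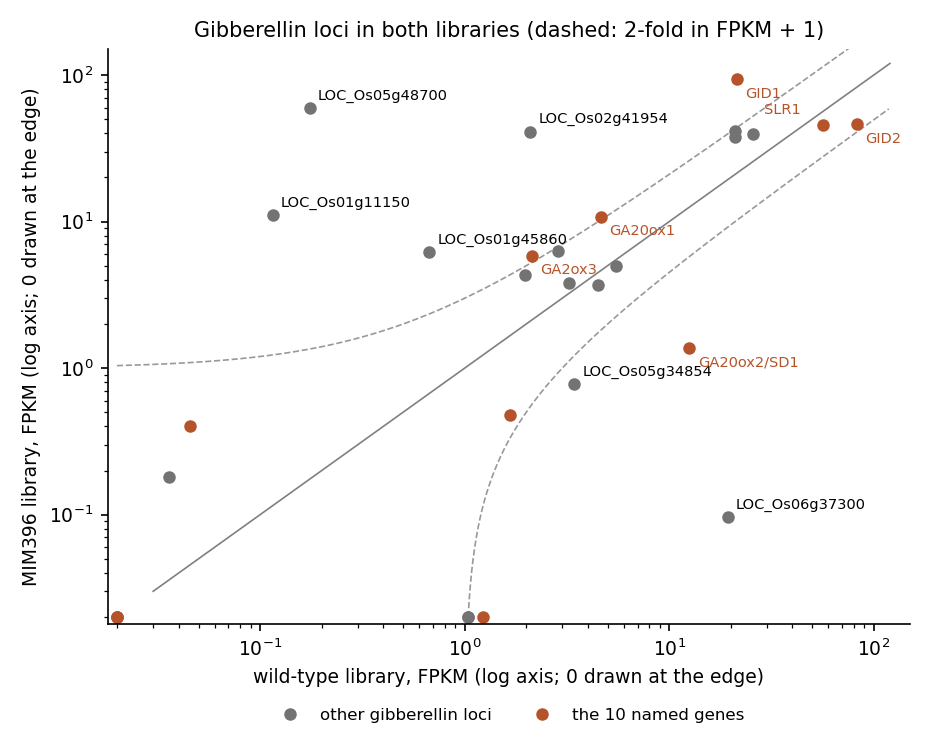
FPKM in the wild-type library (horizontal, log axis) and in the MIM396 library (vertical, log axis) of the 10 named genes (orange) and 19 other gibberellin loci (grey); points at 0 are drawn at the edge, the line marks equal values and the dashed lines a log2 ratio of 1 and -1. LOC_Os05g48700, at 0.175 and 59.5 FPKM, and LOC_Os06g37300, at 19.3 and 0.0966 FPKM, lie farthest from the line among the labelled loci.

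How the libraries are scaled to each other shifted all loci together. The median log2 ratio of all loci was 0.01 with TMM (trimmed mean of M values) and with median-of-ratios size factors, 0.37 when the 50 most abundant loci were dropped, 0.59 with equal read totals and 0.68 with equal FPKM sums. GA20ox1, GA2ox3 and GID1 stayed higher and SD1 stayed lower under each of these 5 scalings and the authors' own. Each of the 5 raised MIM396 relative to wild type beyond the authors' scaling. The higher calls of GA20ox1, GA2ox3 and GID1 therefore could not be lost. Among these genes, only the call of SD1 was open to change. The log2 ratio of GID1 ran from 2.09 to 2.81 over the 6 scalings, that of GA20ox1 from 1.07 to 1.72, that of GA2ox3 from 1.14 to 1.70 and that of SD1 from -2.52 to -1.95. Relative to the median of all loci, GID1 lay 2.09 to 2.13 above, GA20ox1 1.03 to 1.07 above, GA2ox3 1.02 to 1.14 above while SD1 lay at -2.63 to -2.52.

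**Figure D5:**
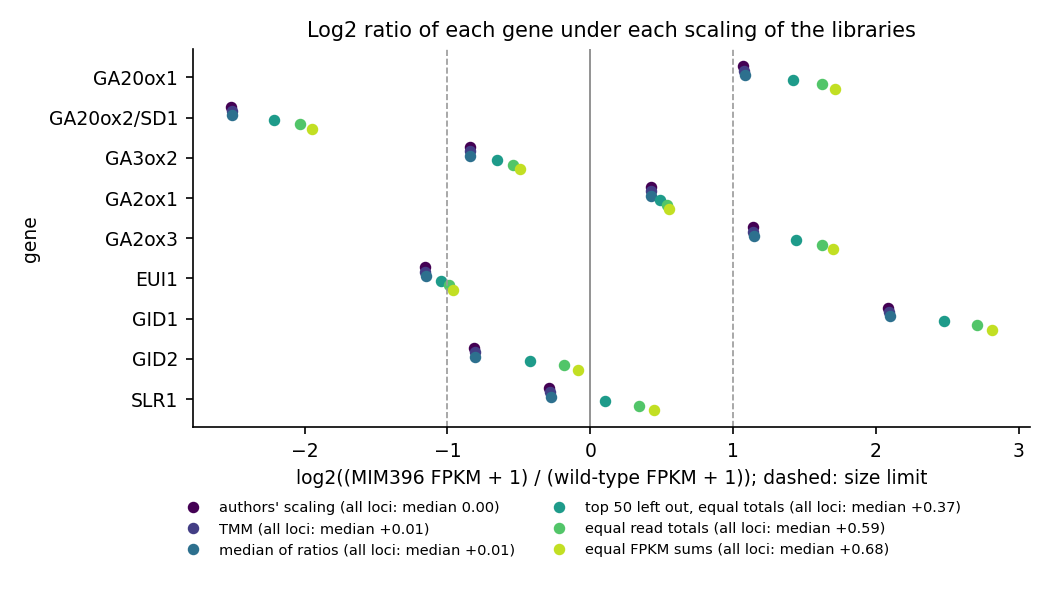
Log2 ratio (horizontal) of 9 genes (rows) under 6 scalings of the libraries (colours, with the median of all loci in the legend); dashed lines mark the size limit of 1 and -1. GID1, GA20ox1 and GA2ox3 stay right of the limit and SD1 left of it, while SLR1 runs from -0.29 to 0.44 across 0. The other scalings all move points to the right of the authors' scaling, so genes right of the limit could not fall back.

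The peak list of the callus ChIP library addresses whether OsGRF6-GFP occupied sites near these genes. Of its 142 peaks, which the authors placed within 3 kb of a gene, 0 were paired with 1 of the 10 loci, and 0 of the 10 had a peak within 10 kb of the locus. Over all 55986 loci, 0.313% were paired with a peak and 0.859% lay within 10 kb of one, so counts of 0 of 10 are near this background and show nothing particular to these genes. The nearest was peak 106 (chromosome 5, 19729123 to 19730151), 138.3 kb from GID1, followed by peak 50 (chromosome 2, 22166931 to 22167934), 165.3 kb from GID2. The distances of the other genes ran from 341.9 kb for GA2ox3 to 3038 kb for SLR1. Of the 19 other loci, 0 were paired with a peak and 1, LOC_Os01g22910, lay within 10 kb, at 6.24 kb from peak 15. The next nearest was LOC_Os01g59660, 18.3 kb from peak 27. The list holds peaks that were placed at genes in 1 library of callus, so it does not show that these loci were free of OsGRF6 in panicles.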

How the data were processed

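Expression came from 1 wild-type and 1 MIM396 panicle RNA library, and peaks from 1 OsGRF6-GFP ChIP library with its input. FastQC and Bowtie are named, without a version, in the submitters' processing notes. The counter, the build and the annotation release were not stated there, in the labels or in the file headers, so positions are printed as the authors' files hold them. The deposited FPKM values were computed by the authors. The deposited read signal per locus held reads scaled by the authors with a factor for each library: a read was worth 1.057 in wild type and 0.844 in MIM396, and values were whole multiples of it within 0.01 for 97.8% and 99.0% of positive values, with 2 MIM396 values under the step. Division by the step gave the reads. After the authors' factors the totals were 17271800 in wild type and 11080200 in MIM396, and FPKM summed to 849095 and 506480. The FDR, an adjusted p-value, is quoted as the authors' deposited value.

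Computed here with Python 3.11.15, numpy 2.4.6, pandas 2.3.3 and scipy 1.17.1 were log2 ratios with 1 FPKM added, the size rule (log2 of at least 1 in size, mean of at least 1 FPKM), exact conditional and Poisson intervals at 95%, and distances to peaks. The rule and the intervals were tested on simulated libraries with counting error only. That test does not cover variation between samples. With 1 library per group no test was run. Names of loci other than the 10 genes are not printed because no table used here pairs them, and no sequences were at hand. The 10 genes were all named by rule, as were the other loci of at least 1 FPKM; members and lists were chosen with earlier results of these data known. The within-library ratios were added after the values were seen. Alternatives changed the scaling, the pseudocount, the filter, the measure and the limit.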

Additional observations from a re-analysis of the deposited data

How the results depend on the processing

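Under all 5 other scalings, 3 of the 10 genes were higher in MIM396 and 1 was lower, as under the authors' scaling. Each of the 5 raised MIM396, so these higher calls could not be lost. Of all loci above the floor, 23.1% were higher and 27.3% lower under the authors' scaling, against 40.2% and 19.0% with equal FPKM sums. The unchanged counts therefore say nothing particular about these genes, and GA3ox2 fell under the floor in some scalings. The count of higher genes became 1, GID1, with 5 FPKM added in place of 1 and with a limit of 4-fold, and it was 2 with a floor of 5 FPKM. The count of lower genes became 2 with 0.1 FPKM added and with scaled reads in place of FPKM, where GA3ox2 joined SD1. It was also 2 with no floor, where EUI1 and not GA3ox2 joined SD1. Over all loci, 4493 were higher and 5310 lower; 7315 were higher with equal read totals and 7844 with equal FPKM sums, 2731 with 5 FPKM added, and 2014 higher and 3029 lower at 4-fold. The share of higher among called loci was 45.8% under the authors' scaling and 67.9% with equal FPKM sums. Of the 19 other loci, 4 were higher and 2 lower. With equal read totals or FPKM sums 9 were higher, beside 37.5% and 40.2% of all loci above the floor. When the 50 most abundant loci were dropped 8 were higher, beside 31.3%. The lower ones became 1 with equal totals, equal FPKM sums, 5 FPKM added, a floor of 5 FPKM or 4-fold, and 4 with no floor. By construction, a scaling that raises MIM396 relative to wild type raises the log2 ratio of every locus with reads. A larger added value likewise shrinks each log2 ratio in size, and a higher floor or limit admits fewer loci. No other cause of these shifts was tested. No log2 ratio of GA20ox1, GA2ox3, GID1 or SD1 changed sign under any alternative run. A changed added value cannot change a sign, and the other scalings could have done so only for SD1 among these genes. The number of genes at peaks was 0 by the authors' pairing and within 3 or 10 kb. No paired analysis was possible because each group has 1 library. Depth limits EUI1, GA2ox1, GA3ox2 and GA20ox3, with 0 to 34 reads.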
